A study of Homo sapiens with 24 samples.

Results

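The mRNAs of antioxidant enzymes, of glutathione and thioredoxin metabolism and of the metal-binding metallothioneins were followed in MRC5 cells, a line of human fetal lung fibroblasts, upon oxidative stress (OS). They were chosen by gene name among the catalog probes of a custom Agilent array. The rule itself uses no measured value, but the choice was made with earlier results of these data known. The rule took 83 of the 61537 probes on the array, of which 17535 are catalog probes for mRNAs, and the 83 probes carry 66 gene names. Cells were either untreated (control) or exposed to 0.2 mM hydrogen peroxide for 2 hours (OS), and both conditions were read in whole-cell (total) RNA and in 3 pools of a polysome gradient. The untranslated pool holds free ribonucleoprotein particles and single ribosomes, the low pool mRNAs with few ribosomes and the high pool mRNAs with many. This gives 8 groups of 3 arrays, with an independent RNA preparation behind each replicate according to the submitters, although control untranslated replicates 1 and 2 carry the same label number. All cells belong to 1 line, and a bulk measurement cannot tell fewer cells with an mRNA from less of it per cell.

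Hydrogen peroxide is removed in the cell by catalase, by glutathione peroxidases and by peroxiredoxins, the last recharged by thioredoxin. Glutathione is a tripeptide whose supply depends on cystine import and on 2 ligation steps, and glutathione transferases couple it to reactive compounds. NRF2, a transcription factor freed from its inhibitor KEAP1 by oxidants, induces many of these enzymes, and metallothioneins, small cysteine-rich proteins that bind zinc and copper, are induced by metals through the factor MTF1. In a polysome gradient an mRNA sediments by the number of ribosomes it carries.

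The metallothionein probes are shown first because they decide what their values can mean. The genes lie side by side on chromosome 16 (MT1E probe at GRCh37 chr16:56660853-56660912, MT1B probe at chr16:56686948-56687007, MT1X probe at chr16:56717962-56718021) and are close relatives in sequence. Member probes are 60 bases long. Among all 3403 pairs of them, 4 shared 40 or more identical bases in the best ungapped alignment, and 3 of these pairs are metallothioneins. The MT1A probe A_23_P54840 and the MT1H probe A_33_P3315314 had 42 identical bases, 27 of them in this single run:
MT1A and MT1H: ctcctgcaagaagagctgctgctcctg
The MT1B probe A_23_P37983 and the MT1E probe A_23_P206724 had 49 identical bases, and in the most alike window of 30 bases 28 were the same, with the bases that differ in capitals:
MT1B: catcAgagaagtgcCgctgctgtgcctgat
MT1E: catcGgagaagtgcAgctgctgtgcctgat
The second MT1H probe, A_33_P3368313, which shares no such stretch with MT1A, was well above background on none of the 23 arrays other than OS low replicate 3, while A_33_P3315314 was bright on all 24. It had 44 bases in common with the MT1X probe, with no shared run over 9 bases. The MT1A, MT1B, MT1E and MT1H probes, and possibly that of MT1X, may read more than 1 MT1 mRNA, so their values are not assigned to single genes or taken as independent.

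Metallothionein promoters in the table used here, those of MT1B, MT1H, MT1X and MT2A, hold the metal response core, searched as TGCACNC or TGCGCNC on both strands over 250 bases before and 50 after the start (RefSeq, GRCh38.p14). The table has no MT1A or MT1E entry. At least 1 match was present in 29.6% of its 35116 promoters and in 21 of the 59 promoters of 45 member genes (35.6%). MT1H and MT2A had 8 matches each, MT1X 4 and MT1B 3. For each promoter shown here the plus-strand match nearest to 50 bases before the annotated start was taken, so a place near there was set by the choice. The match taken ended 47 bases before the start in each, with the core in capitals on the plus strand:
MT1B, chr16:56651822-56651851: ggcggggcctcTGCACCCcaccacctcccc
MT1H, chr16:56669750-56669779: ggcagggtctcTGCACCCggctccctcccc
MT1X, chr16:56682406-56682435: ggcggggcctcTGCGCCCggccctcttccc
The antioxidant response core, searched as TGACNNNGC on both strands, was present in 13.3% of all promoters and in 7 of the 59 (11.9%: GPX2, GSTA4, GSTM5, MT1B, MT1X, MT2A and TXNDC5). It was not among the letters of the OSGIN1 window. A match is a description of the sequence and does not show that a factor binds there.

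Coverage of the textbook response was partial. Of the 24 best known members, HMOX1, NQO1, GCLC, GCLM, SRXN1, TXNRD1, TXN, TXNIP, KEAP1, CAT, GPX4, PRDX1, PRDX6, GSR and FTL were not analysed here, and MT2A was left out because its spot carried an outlier mark. A comparison tested only probes whose spots stood well above background throughout 1 or more of its groups, and 57 of the 82 remaining probes passed in some comparison. The 25 that never passed include NFE2L2 (the gene of NRF2), the NADPH oxidases NOX1, NOX3 and NOX5, GPX3, GPX6, PRDX4 and AKR1C4, for which nothing is said below. Between 50 and 61 member probes were well above background on 23 of the arrays, but 81 on OS low replicate 3, where 95.4% of all mRNA probes were (43.6% to 67.8% on the others). Results that rest on this array are given with and without it. The fibroblast markers COL1A1, COL3A1 and THY1 were detected on all total RNA arrays, VWF, KDR and, on control arrays, EPCAM were not, and KRT8, KRT18, SFTPC, CDH5 and 1 of 3 PTPRC probes were detected. Values are normalised log2 intensities, in which 1 unit is a doubling, given as the mean ± SD of 3 arrays. A value from a pool describes the place of an mRNA among the other mRNAs of that pool and not its amount.

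In total RNA 1 of the 56 tested members passed the test after 2 hours. This was OSGIN1, an NRF2 target that restrains growth, which was higher, and none was called lower. The control arrays read 8.53, 8.59 and 8.54 and the OS arrays 9.70, 9.59 and 9.63, so the groups did not overlap. The difference was 1.09 (SE 0.20, 2.12-fold, limma adjusted p = 0.0016). The 3 slides, each of which carries 1 array of every group, gave 1.17, 1.00 and 1.09. It kept its call with each of the 24 arrays left out in turn. It did not pass when quantile normalization took lncRNA and mRNA probes as 1 set, nor after scaling to the 75th percentile, where it was 0.84 and the median of all mRNA probes moved to -0.19. As a check of the treatment, 3 of the 4 probes of ATF3, a stress-induced transcription factor, rose by 4.83, 4.79 and 4.70, and the fourth was at 0.66 without a call.

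Thus 1 of 56 tested members (1.79%) was called higher and 0 lower, against 3.07% higher and 3.06% lower among the 10630 mRNA probes tested. Without adjustment 7 of the 56 had p under 0.05 in the limma fit. The unmoderated ANOVA of the methods called 3 after adjustment and had 12 under the methods' unadjusted threshold of 0.1, and a fit of the total RNA arrays alone called 8, 7 higher and 1 lower. The median difference of the members was 0.10 and that of all mRNA probes -0.02. Closest to a call were MSRB3, a reductase of oxidised methionine, with -0.36 (SE 0.11, adjusted p = 0.053), and GPX2, a glutathione peroxidase of epithelia, with -1.25 (SE 0.40, adjusted p = 0.068). GPX2 read 6.20, 6.23 and 5.98 in control and 5.48, 5.78 and 3.40 in OS, where 2 of 3 arrays were well above background. Without OS total replicate 3 its difference was -0.51 (adjusted p = 0.32), and it was called lower without OS total replicate 1 (-1.54) or 2 (-1.69). MSRB3 and GPX2 were called lower when OS low replicate 3 was left out, at -0.36 and -1.28, and GSTT1 was then called higher at 0.29. The 5 tested metallothionein probes lay between -0.10 and 0.30. SLC7A11, the cystine carrier of the glutathione pathway, read 13.09, 12.92 and 12.92 in control and 13.11, 13.22 and 12.88 in OS, with no separation between the groups. The largest difference of all, 2.15 for GSTA4, was not called (adjusted p = 0.21) and rested on control replicate 1, which read 3.60 beside 9.19 and 9.28 on the other control arrays. Without it GSTA4 was at 0.27. SOD2, the mitochondrial superoxide dismutase, was 0.29 higher (SE 0.17, adjusted p = 0.43), with OS arrays at 12.54 to 12.67 and all control arrays at 12.31.

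**Figure D1:**
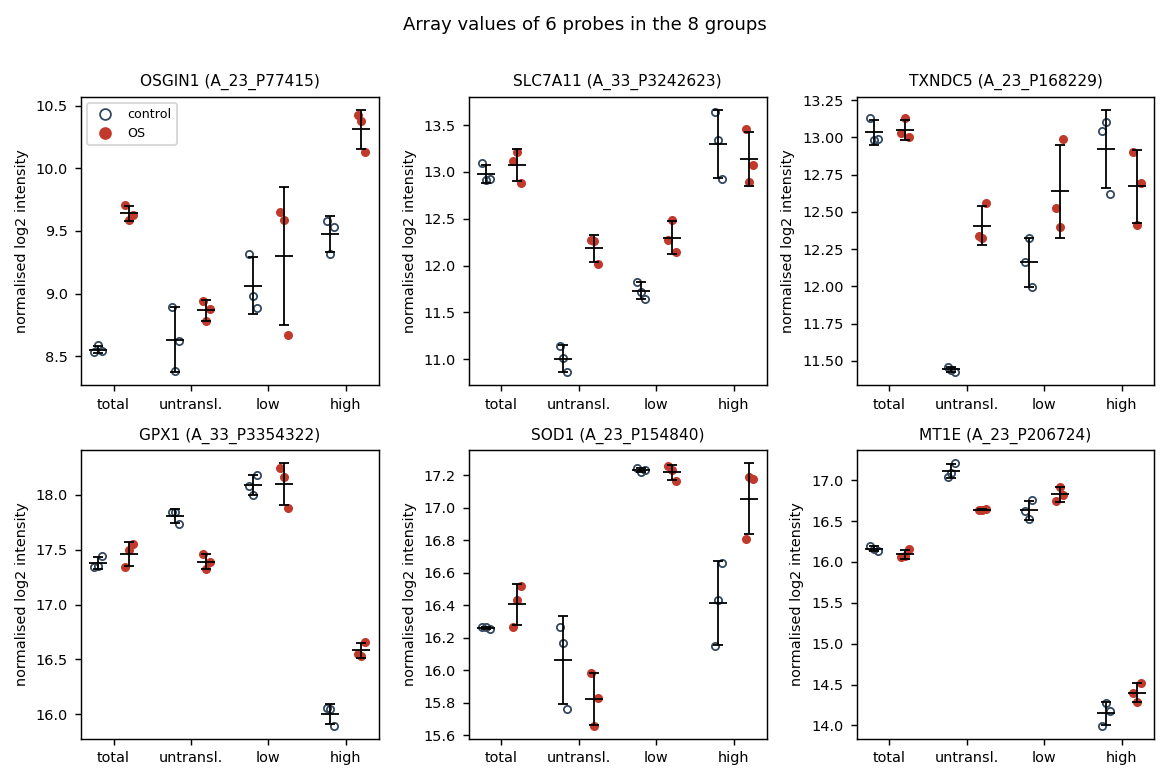
Normalised log2 intensity (y axis) of 6 probes on every array of the 8 groups, with total RNA and the 3 pools along the x axis, control as open and OS as filled circles, bars giving mean ± SD of 3 arrays. OSGIN1 separates control from OS in total RNA (means of 8.55 and 9.64), SLC7A11 and TXNDC5 are higher and GPX1 and MT1E lower in OS in the untranslated pool, and SOD1 is higher in OS in the high pool.

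The control gradients show where each mRNA lay before stress. Position is the log2 value in the high pool minus that in the untranslated pool, and it depends on scaling: the median of all tested mRNA probes was 0.35 here, 0.73 after normexp background correction, 1.06 after quantile normalization of all probes together and 1.64 after scaling to the 75th percentile. Positions are therefore read against that median. In the control gradients 23 of 55 tested members (41.8%) were called higher in the high pool and 20 (36.4%) higher in the untranslated pool, against 42.2% and 31.0% of 9880 mRNA probes, so the members' shares were near the background. The split of calls was 35 to 10 after scaling to the 75th percentile, 31 to 13 with quantile normalization of all probes together, and 32 to 13 after normexp. The median of the members was 0.19. With the median of each scaling subtracted, 47 of the 55 lay on the same side of it under all 4 scalings.

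The metallothioneins formed 1 end. MT1X read 12.68, 12.85 and 12.85 in the untranslated pool and 8.94, 8.93 and 8.79 in the high pool, a difference of -3.90 (SE 0.12, adjusted p = 2e-14). MT1E read 17.03, 17.09 and 17.21 against 14.00, 14.28 and 14.17, a difference of -2.96 (SE 0.10, adjusted p = 4.3e-14). The remaining MT1H, MT1B and MT1A probes differed by -2.74, -2.62 and -2.44. Relative to the mRNA median all 5 lay between -4.53 and -2.76 over the 4 scalings. Further members stood on the same side. GPX1, the main cytosolic glutathione peroxidase (probe A_33_P3239849, GRCh37 chr3:49394925-49394984), differed by -2.36 (SE 0.09) and by -1.81 (SE 0.11) with its second probe. TXNDC17, a small thioredoxin-like protein, differed by -2.64. Its difference from the mRNA median lay between -3.06 and -2.62 over the scalings. The 3 probes of FTH1, the ferritin heavy chain that stores iron, differed by -0.88, -0.64 and -0.64. Position leaves out the low pool. Low minus untranslated in control was -0.96 for MT1X and -0.48, -0.29, -0.35 and -0.42 for MT1E, MT1H, MT1B and MT1A. It was 0.31 and 0.28 for the GPX1 probes, -0.69 for TXNDC17 and -0.18, -0.31 and -1.24 for the FTH1 probes.

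Among the members, the other end held GSS and the cystine carrier SLC7A11 of glutathione synthesis, a peroxiredoxin and an aldo-keto reductase. GSS, glutathione synthetase, which makes the final ligation step (GRCh37 chr20:33516382-33516441), read 11.39, 11.26 and 11.48 in the untranslated pool and 14.51, 14.13 and 14.45 in the high pool, a difference of 2.98 (SE 0.22, adjusted p = 5.9e-10). PRDX3, the mitochondrial peroxiredoxin, read 10.13, 10.56 and 10.04 against 13.35, 13.02 and 13.09, a difference of 2.91 (SE 0.15). AKR1C1, an aldo-keto reductase of steroids and lipid aldehydes, differed by 2.46 and 1.88 with its 2 tested probes. By replicate number the former (A_24_P152968) differed by 1.63, 2.35 and 3.39 and the latter by 1.37, 1.41 and 2.87. Control untranslated replicate 3 read lowest in its group with both, at 5.61 and 7.17. The former was well above background on 2 of 3 arrays of the untranslated pool. SLC7A11 differed by 2.29 (SE 0.17). GSTM2 differed by 1.87, TXNRD3 and TXNRD2, both thioredoxin reductases, by 1.61 and 1.60, and SOD2 by 1.58. By replicate number GSTM2 differed by 1.17, 1.67 and 2.77 and SOD2 by 1.14, 1.42 and 2.19. TXNRD2 was well above background on 1 of 3 arrays of the untranslated pool (6.42, 5.96 and 7.28). GSTM2P1, a transcribed copy of GSTM2, was not well above background in the untranslated pool and was at least 1.65-fold higher in the high pool. SOD1, the cytosolic superoxide dismutase, lay at the mRNA median (0.35, SE 0.15, adjusted p = 0.049). It kept that call in 5 of the 24 fits with 1 array left out and was at -1.43 relative to the median after scaling to the 75th percentile. The sign of NQO2, TXNDC11, MSRB3, TXN2 and GPX7 turned with the scaling, though all 5 stayed below the median.

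**Figure D2:**
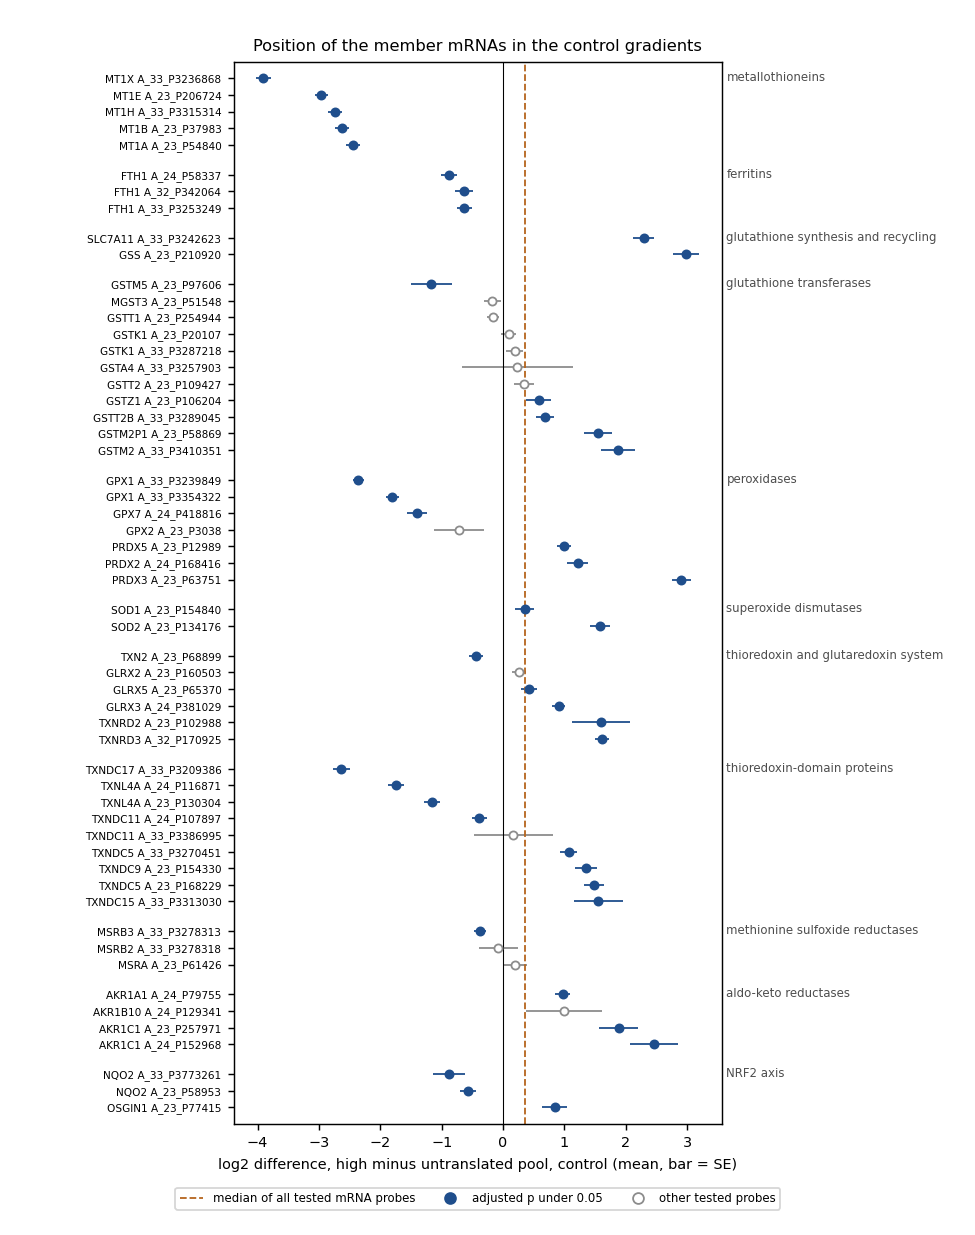
Position in the control gradients, as the log2 value in the high pool minus that in the untranslated pool (x axis), for the 55 tested member probes, grouped by role, with bars for the SE of the limma fit and filled points for adjusted p under 0.05; the dashed line is the median of all tested mRNA probes, 0.35. Metallothioneins sit between -3.90 and -2.44, GSS and SLC7A11 at 2.98 and 2.29.

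In the untranslated pool the calls upon OS went in both directions, and 32 of the tested members had none. SLC7A11, GSS, TXNDC5, GSTT2B and GSTT2 rose, and 4 of 5 tested metallothionein probes, GPX1, the methionine reductase MSRB3 and 4 of 8 thioredoxin-domain probes fell. Of 51 tested members 6 probes (11.8%) were called higher and 13 (25.5%) lower, against 15.8% and 15.7% of 8025 mRNA probes. The median was -0.07 for the members and -0.04 for all mRNA probes.

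Both tested probes of glutathione synthesis, SLC7A11 and GSS, were among the rises relative to the other mRNAs of this pool. Glutathione itself was not measured. SLC7A11 (GRCh37 chr4:139085433-139085492) read 11.14, 11.02 and 10.86 in control and 12.27, 12.26 and 12.02 in OS. The groups did not overlap, and the difference was 1.18 (SE 0.17, 2.26-fold, adjusted p = 6.6e-05), with 1.25, 1.40 and 0.88 within the 3 slides. GSS rose by 0.90 (SE 0.21, adjusted p = 0.0049), from 11.26 to 11.48 in control to 12.02 to 12.61 in OS. Among the 10 tested probes of glutathione transferases, GSTT2B rose by 0.99 (SE 0.14) and GSTT2 by 0.75 (SE 0.16), and none fell. The GSTT2B arrays read 8.10, 7.75 and 7.27 in control and 8.68, 8.64 and 8.76 in OS, so the spread lay in the control arrays. These 2 theta-class genes are near-copies on chromosome 22, so their probes may read each other's mRNA. TXNDC5, a protein disulfide isomerase of the endoplasmic reticulum, rose with both probes, by 0.96 (SE 0.16) and 0.92 (SE 0.13). Its probe A_23_P168229 read 11.46, 11.44 and 11.43 in control and 12.34, 12.33 and 12.56 in OS.

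The falls were smaller. MT1E went from 17.03, 17.09 and 17.21 to 16.63, 16.64 and 16.65, a difference of -0.47 (SE 0.09, adjusted p = 0.0014). The MT1A, MT1H and MT1B probes fell by 0.44, 0.38 and 0.35, and MT1X was at -0.24 without a call. GPX1 fell by 0.42 (SE 0.10, adjusted p = 0.0056) from 17.85, 17.85 and 17.74 to 17.46, 17.32 and 17.39, and by 0.24 with its second probe, a call that held in 7 of the 24 fits with 1 array left out. MSRB3 fell by 0.59 (SE 0.10, adjusted p = 0.00023), and NQO2, a quinone reductase, by 0.55. Of the thioredoxin-domain genes, TXNDC9 fell by 0.57 with overlapping groups, TXNL4A, a spliceosome subunit with a thioredoxin fold, by 0.55, TXNDC11 by 0.49 and TXNDC17 by 0.45. TXNRD3 fell by 0.41.

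Of these 19 calls 13 held with each array left out in turn. Besides the second GPX1 probe, MT1B kept its call in 19 of the 24 fits, TXNDC17 and TXNDC9 in 20, TXNRD3 in 22 and MT1H in 23, each losing it without 1 or another array of the untranslated pool. No call passed after scaling to the 75th percentile with all arrays. When OS low replicate 3 was left out of that scaling 9 passed, 6 higher (SLC7A11, GSS, GSTT2, GSTT2B and both TXNDC5 probes) and 3 lower (MSRB2, MSRB3 and TXNDC11). The metallothionein and GPX1 falls did not pass there.

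In the low pool 2 of 57 tested members were called. TXNDC5 probe A_33_P3270451 rose by 0.53 (SE 0.15, adjusted p = 0.032), and MSRB3 fell by 0.46 (SE 0.11, adjusted p = 0.016). The TXNDC5 probe read 10.29, 10.58 and 10.17 in control and 10.94, 10.73 and 10.96 in OS, and its second probe was at 0.48 without a call. MSRB3 read 12.65, 12.70 and 12.85 in control and 12.12, 12.31 and 12.38 in OS, with no overlap. Thus 1 of 57 members (1.75%) was called in each direction, against 4.42% higher and 5.45% lower among 10806 mRNA probes. Scaling to the 75th percentile called 0 higher and 7 lower, and a fit of the low pool arrays alone called none. The medians were -0.02 and -0.18, and the latter was -1.01 after scaling to the 75th percentile.

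These counts depended on single arrays. Without OS low replicate 3 the TXNDC5 call was lost (0.49, adjusted p = 0.054), MSRB3 stayed at -0.52, and SLC7A11 (0.65), OSGIN1 (0.57), GSTT2 (0.57) and TXNDC11 (-0.39) were called. OSGIN1 read 9.65, 9.59 and 8.67 on the OS arrays, the last on replicate 3, against 9.32, 8.99 and 8.89 in control. The TXNDC5 call was also lost without control low replicate 1 or 3 and the MSRB3 call without control low replicate 3, and 9 members were called without OS low replicate 2. TXNDC5 changed sign to -0.66 after scaling to the 75th percentile, which was 0.35 above the mRNA median there.

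In the high pool 5 members rose and none fell with all arrays in the fit. OSGIN1 rose by 0.83 (SE 0.20, adjusted p = 0.016) from 9.58, 9.31 and 9.53 to 10.42, 10.38 and 10.13. MGST3, a membrane-bound enzyme with glutathione transferase and peroxidase activity, rose by 0.72 (SE 0.14, adjusted p = 0.0027) from 14.99, 15.14 and 15.23 to 15.60, 15.85 and 16.08. SOD1 rose by 0.64 (SE 0.15, adjusted p = 0.013) from 16.15, 16.43 and 16.66 to 16.81, 17.19 and 17.17. In each of the 3 the lowest OS array stood above the highest control array. GPX1 probe A_33_P3354322 rose by 0.58 (SE 0.11, adjusted p = 0.0021) from 16.06, 16.05 and 15.90 to 16.55, 16.53 and 16.66, with 0.49, 0.48 and 0.76 within the 3 slides. Its second probe was at 0.32 (adjusted p = 0.053). PRDX5, a peroxiredoxin of mitochondria and peroxisomes, rose by 0.41 (SE 0.12, adjusted p = 0.045) from 15.78, 15.80 and 15.93 to 16.02, 16.43 and 16.28.

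These are 9.09% of 55 tested members, against 3.57% higher and 2.83% lower among 10266 mRNA probes. The medians were 0.14 and -0.01. GPX1 and MGST3 held with every array left out. OSGIN1 lost its call without OS high replicate 1, OS high replicate 2 or control high replicate 2, SOD1 without OS high replicate 2, OS high replicate 3 or control high replicate 1, and PRDX5 kept it in 5 of the 24 fits. Without OS low replicate 3 the counts were 8 higher and 1 lower: GPX1 A_33_P3239849 (0.32), MT1H (0.34) and TXNDC17 (0.37) were added as higher and TXNRD3 as lower (-0.40). ANOVA without moderation also gave 8 and 1. No member was called after scaling to the 75th percentile. With all arrays the 5 metallothionein probes lay between 0.19 and 0.34 without a call, MT1H being closest (adjusted p = 0.099), and SLC7A11 and GSS were at -0.16 and -0.10.

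The shift asks whether position changed upon OS, as the difference high minus untranslated in OS minus the same in control. Calls went in both directions, but 39 of the tested members had none. Of 55 tested members 11 (20%) were called towards the high pool and 5 (9.09%) towards the untranslated pool, against 8.04% and 8.03% of 10369 mRNA probes. The medians were 0.14 and 0.02.

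The 11 probes that shifted towards the high pool were those of GPX1 (both), MGST3, SOD1, 4 metallothioneins, TXNL4A, TXNDC17 and NQO2. By role these were 2 of 7 tested peroxidase probes, 1 of 2 superoxide dismutase probes (SOD2 was at 0.11) and 4 of 5 metallothionein probes. For GPX1 probe A_33_P3354322 the 3 control differences by replicate number were -1.79, -1.79 and -1.84, and the OS differences -0.91, -0.79 and -0.73. The shift was 1.00 (SE 0.16, adjusted p = 0.00054), and 0.56 (SE 0.13) with the second probe. MGST3 shifted by 0.99 (SE 0.20, adjusted p = 0.0041), from -0.47, -0.26 and 0.21 to 0.48, 0.92 and 1.03. SOD1 shifted by 0.88 (SE 0.22, adjusted p = 0.013), from -0.12, 0.26 and 0.90 to 0.83, 1.53 and 1.34, and here the lowest OS gradient lay below the highest control gradient. MT1E went from -3.04, -2.81 and -3.03 to -2.24, -2.35 and -2.13, a shift of 0.72 (SE 0.15, adjusted p = 0.0045). The MT1H, MT1B and MT1A probes shifted by 0.72, 0.64 and 0.63, and MT1X by 0.55 (SE 0.17) without a call, which it reached without OS low replicate 3. All 5 metallothionein positions stayed well below 0 in OS, between -3.36 and -1.81. TXNL4A shifted by 0.86, TXNDC17 by 0.81 and NQO2 by 0.77. The second TXNL4A probe was at 0.54 without a call. The second NQO2 probe, A_33_P3773261, had the opposite sign (-0.52, SE 0.37, adjusted p = 0.51), so the probes of NQO2 disagree.

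Towards the untranslated pool the largest shift was that of SLC7A11, from 2.50, 2.32 and 2.06 in control to 1.18, 0.63 and 1.05 in OS. The gradients did not overlap, and the shift was -1.34 (SE 0.25, adjusted p = 0.0021). TXNDC5 shifted by -1.22 (SE 0.23, adjusted p = 0.0026) and -0.83 (SE 0.20), GSS by -1.0 (SE 0.31, adjusted p = 0.046) and GSTT2B by -0.86 (SE 0.21). For SLC7A11 and GSS total RNA differed by 0.09 and 0.08, so the rise in the untranslated pool stood beside near-equal levels in whole-cell RNA. SLC7A11 and GSS were still higher in the high than in the untranslated pool in OS, by 0.96 and 1.98.

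Of the 16 shifts 13 held with every array left out. MT1A and MT1B lost the call without OS high replicate 3 or control high replicate 1, and GSS kept it in 5 of the 24 fits. No shift passed after scaling to the 75th percentile with all arrays, and SLC7A11 and TXNDC5 (A_23_P168229) passed when OS low replicate 3 was left out of that scaling, at -1.44 and -1.33. All 16 kept their direction under each alternative. Without OS low replicate 3 the main fit called 18 towards the high and 7 towards the untranslated pool, adding among others OSGIN1 (0.61), MT1X (0.56), PRDX5 (0.44) and both MSRB2 (0.98) and MSRB3 (0.46).

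**Figure D3:**
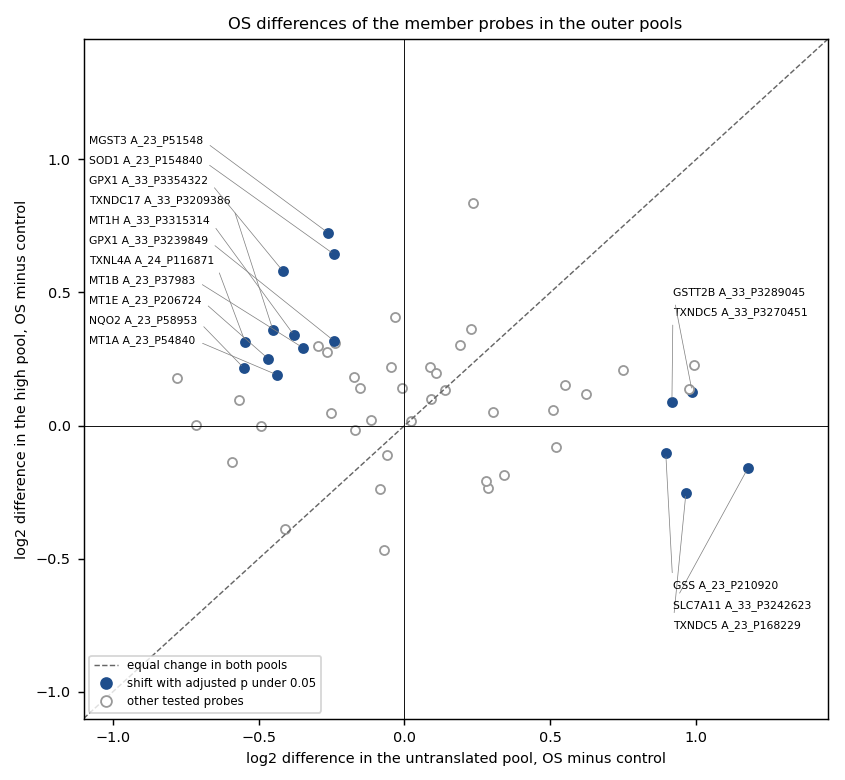
OS minus control in the untranslated pool (x axis) against OS minus control in the high pool (y axis), both as log2 differences, for the 55 member probes tested for a shift; the dashed line marks equal change in both pools and filled points have a shift with adjusted p under 0.05. The 11 probes that shifted towards the high pool lie at upper left, the 5 that shifted the other way at right, with SLC7A11 at 1.18 and -0.16.

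**Figure D4:**
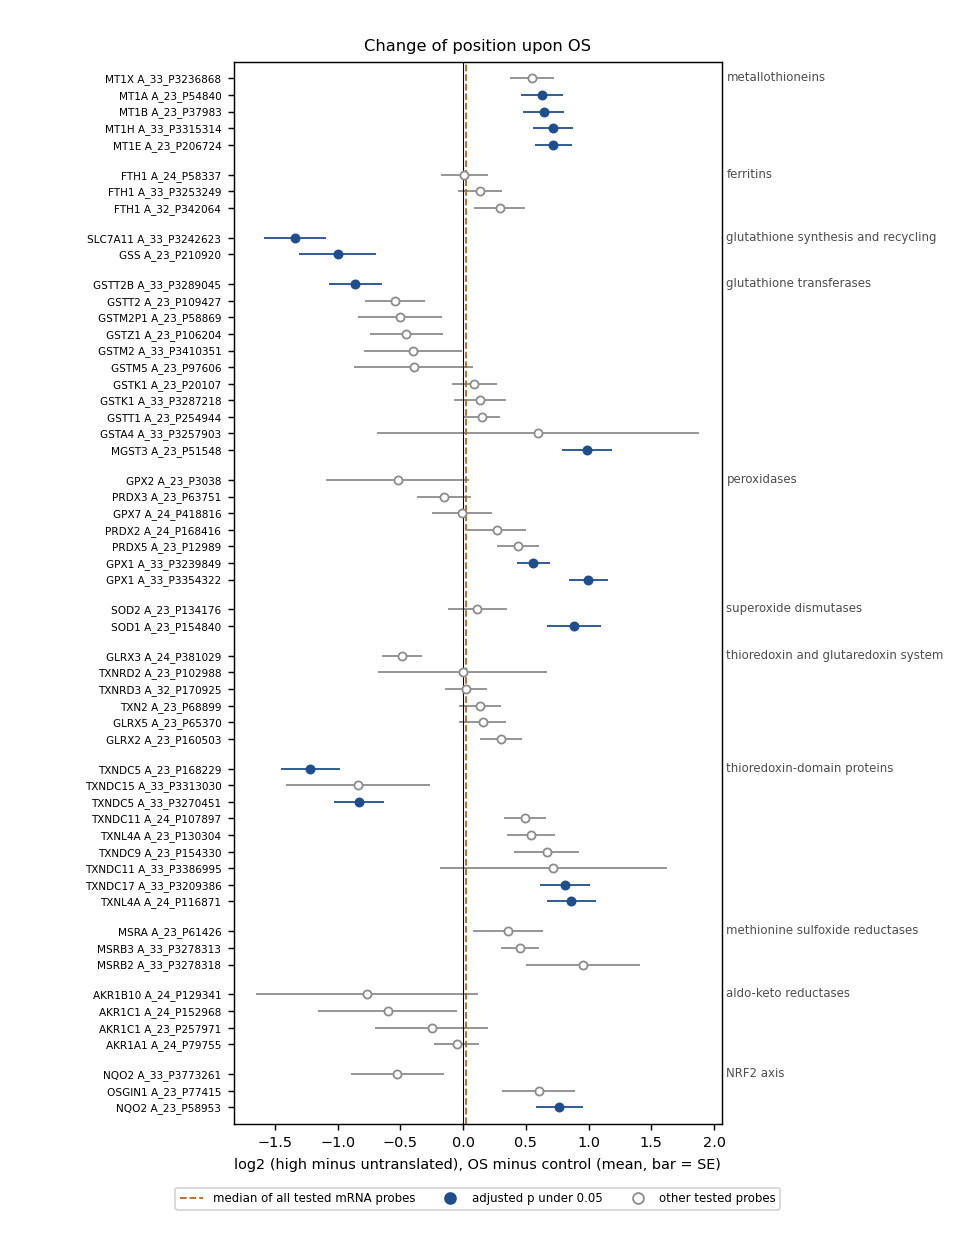
Shift, the position in OS minus the position in control (x axis, log2), for the 55 tested member probes by role, with SE bars and filled points for adjusted p under 0.05; the dashed line is the median of all tested mRNA probes, 0.02. The 5 metallothionein probes lie together between 0.55 and 0.72, while SLC7A11 and GSS lie at -1.34 and -1.0.

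By role, the 2 glutathione synthesis probes (SLC7A11 and GSS) were called in the untranslated pool and in the shift, both in the same direction. The 5 tested metallothionein probes held 4 of the 13 falls in the untranslated pool and 4 of the 11 shifts towards the high pool. For both roles, a change in the untranslated pool enters the shift by its definition, so these calls are not separate results. The metallothionein probes may also read the same mRNAs and are not independent. The 3 ferritin probes and the 4 tested aldo-keto reductase probes held no call upon OS in any RNA, with shifts of 0.01 to 0.29 and -0.76 to -0.05. Of the 7 probes of the thioredoxin and glutaredoxin system, 5 were tested in the untranslated pool. With all arrays in the fit TXNRD3 was called there and no other probe of the system in any RNA upon OS, and in that pool TXN2, the mitochondrial thioredoxin, was at -0.12 and the glutaredoxins GLRX2, GLRX3 and GLRX5 were at -0.25, 0.28 and -0.17. Without OS low replicate 3 GLRX3 was also called in the untranslated pool (0.28) and in the shift (-0.49), and TXNRD3 in the high pool (-0.40).

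Other genes of these pathways were on the array with 30 probes for 27 genes, taken from a list of NRF2 partners, NADPH supply, glutathione turnover, iron and metal handling. In total RNA 3 of 26 tested rose and none fell, with 3.07% and 3.06% of all mRNA probes as background. They were ABCC2, an exporter of glutathione conjugates (2.60, SE 0.31), SESN2, a sestrin of stress signalling (1.67, SE 0.17), and SLC3A2 (0.87, SE 0.16), the heavy chain that partners SLC7A11 in the cystine transporter. In the untranslated pool 12 of 23 rose and 2 fell (background 15.8% and 15.7%), in the low pool 12 of 27 rose and 1 fell (4.42% and 5.45%), and in the high pool 4 of 27 rose and none fell (3.57% and 2.83%). Scaling to the 75th percentile called 1 in total RNA, 0 in the untranslated pool, 1 higher and 3 lower in the low pool, 2 in the high pool and 0 in the shift, and a fit of the low pool arrays alone called none. When OS low replicate 3 was left out of that scaling, 13 rose and 1 fell in the untranslated pool, and 1 moved towards the high and 5 towards the untranslated pool in the shift. In the shift 2 of 27 moved towards the high pool and 7 towards the untranslated pool (8.04% and 8.03%), or 4 and 10 without OS low replicate 3. The largest were EPHX1, an epoxide hydrolase (-1.80, SE 0.34), ABCC3, an exporter of conjugates (-1.20, SE 0.18), and ANPEP, a peptidase that acts on breakdown products of glutathione (-1.07, SE 0.33). The 2 towards the high pool, looked up after their counts were seen, were SESN2 (1.00) and MAFK (0.52), a small partner protein of NRF2. SLC3A2 was at -0.06 (SE 0.22) in the shift, while its partner SLC7A11 was at -1.34.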

How the data were processed

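The 24 arrays cover MRC5 cells in 8 groups of 3. The authors scanned them and deposited the Feature Extraction 10.7.3.1 output, with an intensity per spot, and a table of log2 values that differed by at most 0.0014 from quantile normalization of all probes together. The header names GRCh37 as the build of the design.

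Following the methods, log2 of the processed signal was quantile-normalized, the lncRNA and the mRNA probes each on their own. The 178 probes with an outlier mark were left out; 43911 lncRNA and 17448 mRNA probes remained, and no member spot was saturated. Probes of a gene were kept apart. limma 3.58.1 (R 4.3.3) was fitted over 8 groups, with Benjamini-Hochberg adjustment over all lncRNA and mRNA probes tested and calls at adjusted p under 0.05. In simulated data it recovered 5.97% of changes of 0.5 log2 units and 50.7% of changes of 1 in total RNA. The shares were 11.9% and 60.6% in the high pool and 0% and 25.4% in the shift. A member without a call is therefore not shown to be unchanged. The number of arrays limits the precision. Each p-value rests on the spread between the 3 arrays of a group, pooled over all 8 groups and moderated over the tested probes. It is not the spread of the compared groups alone, and it takes in OS low replicate 3.

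Control untranslated replicates 1 and 2, which share a label number, were kept as 2. The SD of their difference was 0.94, beside 0.98 and 0.93 for the other pairs of that group. These values cannot tell whether 1 preparation gave both. The methods removed anomalous replicates without naming them; all arrays were kept. Members and lists were chosen with earlier results of these data known. Named members are 24 well-known genes and, per comparison, up to 8 called probes in each direction whose groups did not overlap; any other member was named after its values were seen. Alternatives were 3 other normalizations, 2 filters on dim probes, the replicate number or slide as a block, the compared groups alone, ANOVA without moderation, control untranslated replicates 1 and 2 as 1, each array left out, and, chosen after seeing the data, 75th percentile scaling without OS low replicate 3.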

Additional observations from a re-analysis of the deposited data

Results flagged for a closer look

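The OS effect differed between the high and the untranslated pool for 16 member probes, by the interaction term of the limma fit at adjusted p under 0.05. The effect in the high pool exceeded that in the untranslated pool on the log2 scale by 1.00 and 0.56 for the 2 GPX1 probes, 0.99 for MGST3, 0.88 for SOD1, 0.86 for TXNL4A A_24_P116871, 0.81 for TXNDC17, 0.77 for NQO2 A_23_P58953, 0.72 for MT1E, 0.72 for MT1H, 0.64 for MT1B and 0.63 for MT1A. The other NQO2 probe had the opposite sign (-0.52, not called). The difference was -1.34 for SLC7A11, -1.22 and -0.83 for the 2 TXNDC5 probes, -1.0 for GSS and -0.86 for GSTT2B.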

How the results depend on the processing

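Each comparison was repeated under 12 other settings and with each of the 24 arrays left out. The fit without OS low replicate 3 is in both sets and so is counted 2 times. Of the single-probe results 97 gained and 232 lost a call, and 15 changed sign with a call in the main or the other fit. The remaining 6527 kept their call or its absence. They include changes of sign where neither fit had a call. With 1 array left out the member calls ranged from 1 to 4 in total RNA, 15 to 22 in the untranslated pool, 0 to 9 in the low pool, 3 to 9 in the high pool, 41 to 46 in the control gradients and 13 to 25 for the shift. Scaling to the 75th percentile gave 0 calls in total RNA, the untranslated pool, the high pool and the shift, and 7 in the low pool, all lower; without OS low replicate 3 the same scaling gave 2, 9, 1 and 2 in the former comparisons. Leaving out OS low replicate 3 from the main processing gave 4 calls in total RNA, 5 in the low pool, 9 in the high pool and 25 for the shift. Quantile normalization of all probes together gave 0 in total RNA and 3 in the high pool, and normexp 2 in total RNA. Without a filter 11, 1, 2 and 7 were called in the untranslated, low and high pools and the shift. A fit of the compared groups alone gave 8, 0 and 3 in total RNA and the low and high pools, ANOVA without moderation 3, 5 and 9, and the slide as a block 2 in total RNA. The causes were not tested.

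Among probes named by the rule, the sign turned in the control gradients for MGST3 (0.34 after normexp, 0.33 after quantile normalization of all probes together). It also turned for NQO2 A_23_P58953 (0.078, 0.045 and 1.18 after scaling to the 75th percentile), TXNDC11 A_24_P107897 (0.25, 0.22 and 1.38) and MSRB3 (0.11, 0.12 and 1.30). The values after scaling to the 75th percentile were the same without OS low replicate 3. TXNDC5 A_33_P3270451 turned to -0.66 in the low pool after scaling to the 75th percentile.

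Whether the replicate numbers pair the samples is not known. In deviations from the group mean, 5 of 18 pairs of same-numbered arrays correlated above 0.1 (range -0.35 to 0.46 over 6799 probes). Differently numbered pairs were not compared, so these values cannot decide it. The gradients given by replicate number rest on the numbering alone. With the replicate number as a block, 1, 18, 3, 4, 42 and 16 members were called in total RNA, the untranslated, low and high pools, the control gradients and the shift. Signal over background limits what can be said of the 25 member probes that no comparison tested.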
